A study of Mus musculus with 3 samples.

Results

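The 44 collagen genes of the mouse were examined for binding of the forkhead transcription factor Foxf2 in the embryonic tongue. The data were a single deposited list of 25707 peaks from chromatin immunoprecipitation with sequencing (ChIP-seq). The embryos were homozygous for an endogenous Foxf2 gene edited with CRISPR/Cas9 to carry a 3xFLAG epitope tag (Foxf2FLAG/FLAG), and tongues were dissected at E12.5. The labels give 2 libraries precipitated with an anti-FLAG antibody and 1 input library without antibody, and libraries were made with a ThruPLEX kit. The labels name 75 tongues on each of the 3 samples without saying whether that number is per library or in all. Every sample carried the tag, so no value from untagged tissue was at hand. A peak was assigned to a collagen gene when its midpoint lay nearer to a transcription start site (TSS) of that gene than to any other protein-coding TSS of the mm10 annotation. By this rule 129 of the 25704 peaks on chromosomes belonged to collagen genes. The list has no value per library, so the sequencing depth was unknown, agreement between replicates could not be assessed and no test over samples was possible. All comparisons are counts over peaks or genes of this list, and neither are biological replicates. Exact (Clopper-Pearson) 95% intervals cover the counting of peaks or genes only. A list of binding sites holds no expression values, so the labelled tissue could not be checked against marker transcripts.

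Collagens are the triple-helical proteins of the extracellular matrix. Fibrillar collagens form the cross-striated fibrils of connective tissue, network collagens build the sheets of basement membranes and related lattices, and fibril-associated collagens coat fibrils and link them to other matrix. Transmembrane collagens are anchored in the cell surface, and the beaded filaments of type VI collagen surround muscle and other cells. Foxf2 is expressed in the mesenchyme of the embryonic mouth, the tissue whose cells make much of this matrix in the tongue. Forkhead proteins bind a 7-base core, searched here on both strands in 4 spellings. The spelling ATAAACA was found in 41 of the collagen peaks described here (31.8%, interval 23.9 to 40.6) and in 38.1% of all peaks. The spelling GTAAACA was found in 40 collagen peaks (31.0%), against 27.4% of all peaks. ATAAATA was found in 18 collagen peaks (14.0%, against 13.5%) and the last spelling, GTAAATA, in 11 (8.53%, against 9.79%). GTAAACA alone is called the strict core, and it is one of the 4 spellings.

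The sequences of the highest-scored peaks show what a strong site at a collagen gene looked like. These are the peaks of the 8 members with the highest top scores, each 213 bases of the mm10 plus strand, with every match to the core in capitals. A match on the minus strand reads as its reverse complement, so that TGTTTAC stands for the strict core and TGTTTAT for ATAAACA.
Col23a1, intron 2, 99.2 kb downstream of its TSS (chr11:51389011-51389223): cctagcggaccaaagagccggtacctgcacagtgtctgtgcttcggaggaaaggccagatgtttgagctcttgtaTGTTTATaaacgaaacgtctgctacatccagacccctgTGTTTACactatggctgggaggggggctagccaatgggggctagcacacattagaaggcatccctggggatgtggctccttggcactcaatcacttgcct
Col1a1, 39.3 kb upstream (chr11:94896805-94897017): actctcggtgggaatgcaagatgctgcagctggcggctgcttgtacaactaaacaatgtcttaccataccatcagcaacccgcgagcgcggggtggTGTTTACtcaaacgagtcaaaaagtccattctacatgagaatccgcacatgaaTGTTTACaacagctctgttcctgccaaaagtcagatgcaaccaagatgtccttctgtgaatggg
Col6a6, intron 1, 13.2 kb downstream (chr9:105796320-105796532): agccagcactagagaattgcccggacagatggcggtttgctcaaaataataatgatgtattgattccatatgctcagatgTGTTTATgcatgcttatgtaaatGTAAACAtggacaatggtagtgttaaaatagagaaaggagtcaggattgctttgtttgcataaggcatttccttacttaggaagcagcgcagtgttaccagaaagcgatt
Col4a2, 120 kb upstream (chr8:11193000-11193212): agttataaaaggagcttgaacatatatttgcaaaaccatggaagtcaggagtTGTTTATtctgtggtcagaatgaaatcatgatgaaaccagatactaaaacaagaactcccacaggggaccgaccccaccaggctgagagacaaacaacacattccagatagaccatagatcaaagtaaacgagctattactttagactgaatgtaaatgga
Col4a3, intron 2, 54.8 kb downstream (chr1:82641713-82641925): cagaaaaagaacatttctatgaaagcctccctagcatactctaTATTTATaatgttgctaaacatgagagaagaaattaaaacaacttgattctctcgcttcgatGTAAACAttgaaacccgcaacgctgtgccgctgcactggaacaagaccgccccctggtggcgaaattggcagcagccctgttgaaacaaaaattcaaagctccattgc
Col3a1, 291 kb upstream (chr1:45020763-45020975): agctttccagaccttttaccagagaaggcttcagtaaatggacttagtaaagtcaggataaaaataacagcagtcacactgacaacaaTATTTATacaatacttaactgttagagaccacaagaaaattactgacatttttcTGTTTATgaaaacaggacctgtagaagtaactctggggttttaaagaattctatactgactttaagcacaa
Col6a3, intron 39, 73.7 kb downstream (chr1:90770120-90770332): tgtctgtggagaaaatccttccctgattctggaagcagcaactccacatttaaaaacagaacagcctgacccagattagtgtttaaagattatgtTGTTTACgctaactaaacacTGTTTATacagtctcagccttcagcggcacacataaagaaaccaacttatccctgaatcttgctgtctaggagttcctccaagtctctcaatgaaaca
Col1a2, 16.0 kb upstream (chr6:4489372-4489584): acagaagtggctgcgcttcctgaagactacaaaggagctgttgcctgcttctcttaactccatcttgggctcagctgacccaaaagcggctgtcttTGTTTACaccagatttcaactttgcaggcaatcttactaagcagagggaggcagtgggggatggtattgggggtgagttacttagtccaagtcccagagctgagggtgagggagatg
Each of these 8 peaks held at least 1 core, and all but the Col1a2 and Col4a2 peaks held a pair. A core was also present in 85.6% of the highest-scored decile of the whole list, so its presence does not set these peaks apart. The share with a pair in that decile is not given here, so the pairs cannot be compared. In Col6a6 the strict core was centred on the peak midpoint, at 0 bp from it, and in Col4a3 it lay 2 bp away. In Col4a2 the only core lay 51 bp from the midpoint, farther than the nearest core of each of the other 7 peaks.

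At least 1 peak was nearest to 35 of the 44 collagen genes (79.5%, interval 64.7 to 90.2). The same was true of 37.4% of all 21851 protein-coding genes. The stretches of DNA nearest to collagen TSSs, called territories here, were also longer, with a median of 137 kb against 47.3 kb for all genes. The shares were therefore also taken within bands of territory length. Of the 7 members under 50 kb, 3 had a peak (42.9%, interval 9.90 to 81.6), against 17.0% of all genes of that length. From 50 to 100 kb the share was 8 of 10 (80.0%, interval 44.4 to 97.5) against 42.3%, and from 100 to 200 kb 12 of 14 (85.7%, interval 57.2 to 98.2) against 63.8%. Above 200 kb it was 12 of 13 (92.3%, interval 64.0 to 99.8) against 80.0%. The interval excluded the share of all genes in the band from 50 to 100 kb and held it in the other bands. Mean peak numbers per collagen gene and per gene overall were 0.429 and 0.207 under 50 kb, 1.60 and 0.713 from 50 to 100 kb, and 3.43 and 1.71 from 100 to 200 kb. In the longest band they were 4.77 and 4.89. These bands were added after the values were seen.

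The number of peaks ranged from 0 to 12 per member. Col5a1, whose product starts and limits the thickness of collagen fibrils, had 12, and Col8a1, a short-chain network collagen, had 10. These 2 members of 44 reached 10 peaks, as did 2.27% of all protein-coding genes. Col25a1, a transmembrane collagen that takes part in motor innervation of muscle, followed with 9. Col3a1, the chain of type III collagen of extensible tissues, had 8. Col1a2, a chain of type I collagen, and Col6a6, a type VI chain, had 7 each. Col12a1, Col14a1, Col22a1 and Col6a3 had 5 each, and together the 10 members with the most peaks held 73 of the 129 (56.6%). A single peak was found at 9 members: Col11a1, Col27a1, Col4a3, Col8a2, Col9a2, Col17a1, Col6a4, Col6a5 and Col7a1.

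**Figure D1:**
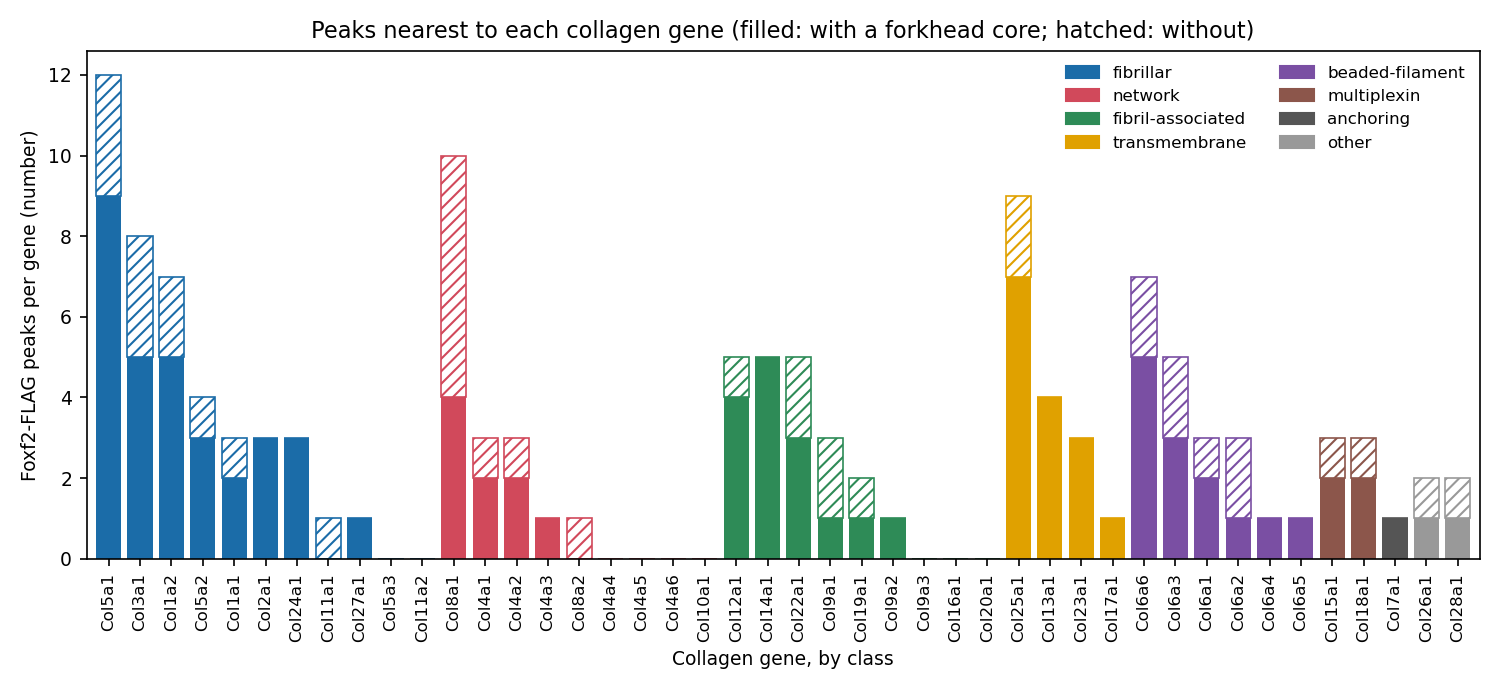
Number of Foxf2-FLAG peaks nearest to each of the 44 collagen genes, in order of class; filled bars are peaks with a forkhead core and hatched bars are peaks without. Col5a1 has 12 peaks and Col8a1 10, and 9 genes have none.

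The 9 members without a peak were Col5a3, Col11a2, Col4a4, Col4a5, Col4a6, Col10a1, Col9a3, Col16a1 and Col20a1. Col11a2 had a peak of another gene 7.15 kb from its TSS, Col20a1 one at 19.7 kb and Col9a3 one at 23.7 kb. The body of Col9a3 held 1 peak, which lay nearer to the TSS of Tcfl5. For Col5a3, Col10a1, Col16a1 and Col4a4 the nearest peak lay 42.2, 48.7, 52.5 and 55.0 kb away. Col4a5 and Col4a6, which share a start region on the X chromosome, were 495 and 493 kb from any peak. The X chromosome held fewer peaks in general, 0.215 per 100 kb against 1.03 on the autosomes.

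Per 100 kb of territory, Col5a1 had the highest density of all members, 6.41 peaks, or 6.23 times the number that the mean autosomal density would give. It stood at the 98.9 percentile of protein-coding genes with territories of at least 20 kb. Col2a1, the main cartilage collagen, followed with 4.67 peaks per 100 kb from 3 peaks, Col6a6 with 4.17, Col7a1 with 4.04 from a single peak and Col6a2 with 3.98. Col8a1 and Col3a1, with many peaks, also had long territories (401 and 407 kb) and densities of 2.50 and 1.97. At the other end, Col11a1, a minor fibrillar chain of cartilage, had 1 peak in 637 kb, 0.153 times the number at mean density. In all, 30 of the 44 members lay above the autosomal mean, as did 33.2% of genes with territories of at least 20 kb. Of all genes with territories under 50 kb only 17.0% had a peak, and this comparison was not made within bands of territory length.

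**Figure D2:**
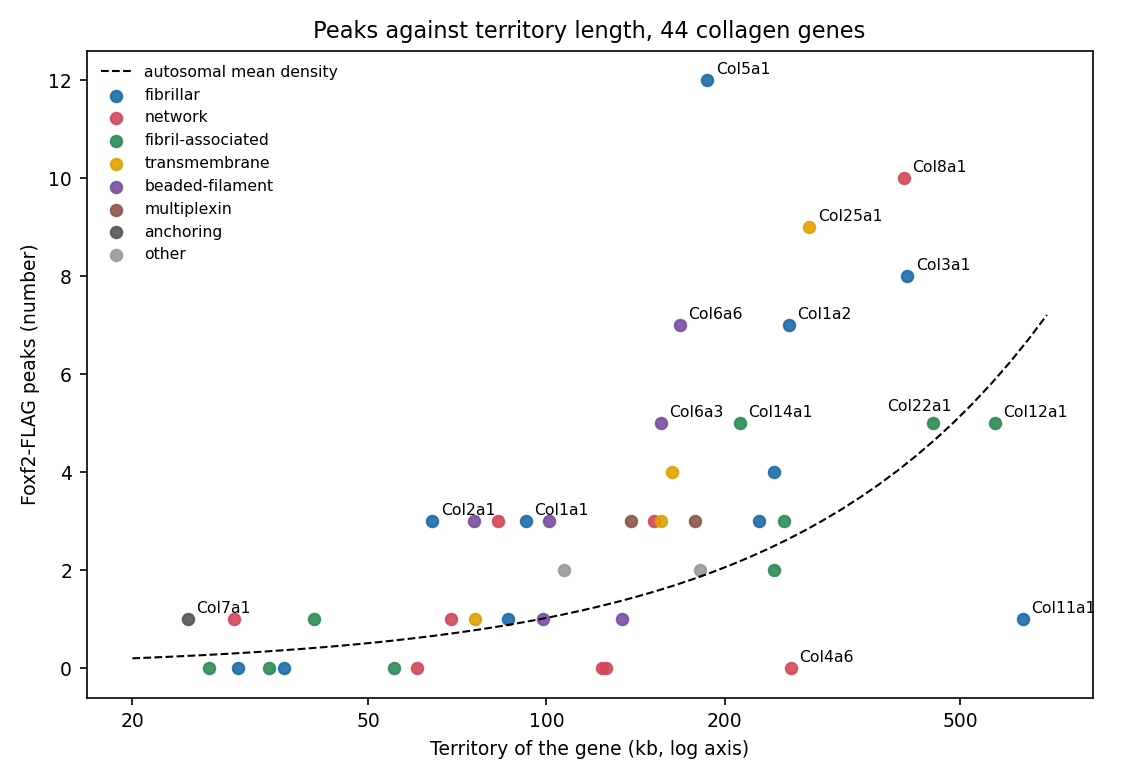
Peaks per collagen gene against the length of its territory in kb on a log axis, with points coloured by class and a dashed line for the autosomal mean of 1.03 peaks per 100 kb; the line does not apply to the X-linked genes Col4a5 and Col4a6. Col5a1 lies far above the line and Col11a1 far below it.

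Among the 4 classes compared, transmembrane collagens had peaks at all 4 members (interval 39.8 to 100) and fibrillar collagens at 9 of 11 (81.8%, interval 48.2 to 97.7). Fibril-associated collagens had them at 6 of 9 (66.7%, interval 29.9 to 92.5) and network collagens at 5 of 9 (55.6%, interval 21.2 to 86.3). These intervals overlap, and with 4 to 11 genes per class no order of the classes can be read from the shares. The 6 type VI genes each had at least 1 peak, as did Col15a1, Col18a1, Col7a1, Col26a1 and Col28a1. Densities over the summed territories were 2.53 peaks per 100 kb for the transmembrane, 1.85 for the fibrillar, 1.38 for the network and 1.11 for the fibril-associated class. The type VI genes had 2.73, and all protein-coding genes had 0.943. The network class includes the X-linked Col4a5 and Col4a6, whose territories of 126 and 259 kb held no peak.

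Peaks were placed differently among the classes, as a description of these counts. Gene length was not accounted for: Col1a1, Col1a2 and Col3a1 span 16.8, 36.7 and 38.2 kb, and Col23a1 and Col25a1 span 294 and 468 kb. Few genes made up most upstream counts. Col8a1 gave 7 of the network peaks, and Col3a1, Col1a2 and Col5a1 gave 7, 6 and 6 of the fibrillar ones. Of the 42 fibrillar peaks, 26 (61.9%) lay upstream of the gene and 16 inside it. Of the 18 network peaks, 13 (72.2%) were counted as upstream and 5 as inside. Because the Col4a1 and Col4a2 genes overlap at their starts, the nearest-TSS rule counts every peak on either side of the pair as upstream. That holds for all 6 peaks of the pair, of which 4 lie within the partner gene. The rest of the upstream network peaks are the 7 of Col8a1, so the 72.2% does not describe the class. Inside their own gene were 15 of the 21 fibril-associated peaks (71.4%) and 13 of the 17 transmembrane peaks (76.5%). Over all classes, 65 peaks (50.4%) were inside the collagen gene, 57 upstream and 7 beyond its end. The inside and upstream shares were not counted over the whole list, so they cannot be compared with it. Only 18 of the 129 (14.0%) were within 10 kb of the TSS, against 20.9% of all peaks, and 105 (81.4%) were within 100 kb, against 66.2%. By annotation, 54.3% were intronic (interval 45.3 to 63.1), 39.5% intergenic (interval 31.0 to 48.5) and none were in coding exons, against 47.0%, 42.7% and 0.603% of all peaks.

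The fibrillar genes of type I collagen, the most abundant fibrous protein of connective tissue, had their strongest peaks upstream. Col1a1 (ENSMUSG00000001506.10, chr11:94936224-94953042) had 3. The peak 39.3 kb upstream scored 107.9, with rank 114 among all peaks, and held 2 strict cores. The next, 15.3 kb upstream, scored 30.4 and held an ATAAACA. The third, in intron 1 at 1.44 kb downstream of the TSS, scored 10.3 and held none. Col1a2 (ENSMUSG00000029661.16, chr6:4504814-4541544) had 6 peaks between 16.0 and 63.7 kb upstream and 1 at its start. Those at 16.0 and 20.9 kb scored 78.4 and 68.3, each with 1 strict core, and the one at 63.7 kb scored 66.1 with no core. The remaining upstream peaks scored 22 or less.

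Col3a1 and Col5a2 are neighbours on chromosome 1, with TSSs 192 kb apart, and together had 12 peaks. Of the 8 at Col3a1, 4 formed a remote group 255 to 291 kb upstream, and 2 of these held a core. The highest of them scored 87.1, and the next gene, Gulp1, had its TSS 332 kb from it. Nearer to the gene were peaks 29.3 and 23.4 kb upstream, with scores of 12.7 and 10.5, and a promoter peak. A peak in intron 1, 5.38 kb downstream of the TSS, had 2 cores and a score of 25.8. None of the 8 held the strict core. At Col5a2, whose product joins that of Col5a1 in type V collagen, 3 peaks lay within 14.8 kb downstream of the TSS and 1 was 94.2 kb upstream. Their scores ran from 10.1 to 24.3.

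Col5a1 (ENSMUSG00000026837.15, chr2:27886425-28039514) had 6 peaks upstream, from 11.2 to 75.4 kb, and 6 in its introns, from 19.2 to 95.9 kb downstream of the TSS. The highest scores were inside the gene: 67.0 in intron 9 with 2 cores and 63.5 in intron 4 with 1 strict core. The highest upstream score was 32.4, at 50.2 kb. A core was present in 9 of the 12 peaks and the strict core in 6. Col2a1 had all 3 peaks with a core, at 17.4 and 22.9 kb upstream (scores 47.1 and 23.9) and in intron 1, 2.15 kb downstream of its TSS (32.4). Col24a1 had 3, Col27a1 had 1 at 1.74 kb upstream, and the Col11a1 peak, at a score of 10.8 in intron 4, held no core.

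In the network class, Col4a1 and Col4a2 encode the chains of nearly every basement membrane and are transcribed in opposite directions from annotated start sites 21 bp apart, with overlapping first exons. The nearest-TSS rule gives each peak on either side to the gene whose start lies those few bases nearer, so the 6 peaks, 4 of them with a core, are given for the pair. The 3 assigned to Col4a1 lay in intron 4 of Col4a2, 49.8 to 63.2 kb from the starts, with scores of 40.1, 16.4 and 10.7. Of the 3 assigned to Col4a2, 1 lay in intron 1 of Col4a1 (13.8) and the others were beyond the end of Col4a1, at 120 and 126 kb, with scores of 99.6 and 22.2. Col4a3, whose chain is found in kidney basement membrane, had a single peak with a score of 95 in intron 2, and its divergent partner Col4a4 (TSSs 127 bp apart) had none.

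Col8a1 (ENSMUSG00000068196.5, chr16:57624258-57754737) had 10 peaks of modest score, from 10.7 to 25.8. The 7 upstream peaks reached 281 kb from the TSS, and 1 of them held a core. The 3 peaks in intron 1 all did. The 3 remotest, 251 to 281 kb upstream, held none and lay in the long noncoding gene Gm49575. The same was true of the peaks 78.5 and 103 kb upstream. Col8a2 had 1 peak without a core, 14.6 kb into the gene.

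Among the fibril-associated genes, Col14a1 and Col12a1 encode collagens of fascia and tendon. Col14a1 (ENSMUSG00000022371.16) had 5 peaks with a core each. Its highest, at 76.7, lay 76.5 kb upstream in intron 8 of the neighbour Deptor, whose own TSS was 97.8 kb away. Col12a1 had 2 intronic peaks and 3 far beyond its end, 279 to 449 kb downstream of the TSS, with scores of up to 29.7. Col22a1, whose product lies at the junction of muscle and tendon, had 5 peaks inside the gene, led by 1 in intron 3 with a score of 74.8 and a strict core. Of the cartilage collagen type IX genes, Col9a1 had 3 peaks of 10.4 to 15.4 and Col9a2 had 1 at 21. Col19a1 had 2, of 22.9 and 11.1.

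The transmembrane genes held the highest-scored collagen peak. Col23a1 (ENSMUSG00000063564.13, chr11:51289920-51583918) had 3 peaks, all in intron 2. They scored 51.8, 131.9 and 35.9 at 58.1, 99.2 and 126 kb downstream of the TSS, and 131.9 was rank 51 among all peaks. A further 10 peaks inside Col23a1 were nearer to the TSS of Phykpl, so the gene body held 13. Col25a1 also had 9 peaks by the nearest-TSS rule, of which 7 lay inside the gene, and a further 9 inside it were nearer to Etnppl, which makes 16 in the gene body. Its highest, at 55.2, lay in intron 2, 184 kb from the TSS. Col13a1, a collagen of the neuromuscular junction, had 4 peaks with scores of 10.5 to 16.3, each with a core. Col17a1, a component of the hemidesmosomes that fix epithelium to its basement membrane, had 1 in intron 6 (19.5).

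Type VI genes lie in 3 places. On chromosome 9, Col6a6 had 7 peaks, all inside the gene, with 101.7 in intron 1 as the highest, and Col6a4 and Col6a5 had 1 each (29.5 and 14.5). On chromosome 10, the neighbours Col6a1 and Col6a2 had 3 each. Those of Col6a2 were 4.20 to 19.8 kb upstream of it, and 2 of Col6a1 were 26 and 50.6 kb downstream of its TSS with scores of 49.6 and 30.2 and a strict core in both, so that 5 of the 6 lay between the genes. On chromosome 1, Col6a3 had 5, with 78.8 in intron 39 and 60.2 at 99.7 kb downstream of its TSS, beyond the gene's end. Col15a1 and Col18a1, basement membrane collagens that yield fragments such as endostatin, had 3 each, the highest being 59.3 at 31.4 kb upstream of Col18a1. Col7a1, the anchoring fibril collagen of skin, had 1 peak of 10.2 at 3.56 kb upstream. Col26a1 and Col28a1 had 2 each, up to 43.9 and 20.5.

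Scores of the collagen peaks had a median of 19.4 against 16.2 in the whole list, where the score is the authors' own value and serves to rank and describe peaks. At or above the median of all peaks were 60.5% of collagen peaks (interval 51.5 to 69.0), against 50.1% of the list. The highest decile of the list held 24 of them (18.6%, interval 12.3 to 26.4), against 10% of all peaks. By class the medians were 20.7 for fibrillar, 16.1 for network, 18.1 for fibril-associated, 18.6 for transmembrane and 23.6 for type VI genes. The interquartile ranges overlapped, from 12.8 to 33.9 in the fibrillar and 12.1 to 22.4 in the network class. The 10 highest-scored collagen peaks belonged to 10 genes, and all 10 held a core. Of the collagen peaks in the highest decile of the list, 22 of 24 held one (91.7%, interval 73.0 to 99.0), as did 85.6% of all peaks in that decile. The focus ratio, the deposited measure of how tightly a peak is confined, had a median of 0.781 at collagen genes and 0.783 in the whole list.

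**Figure D3:**
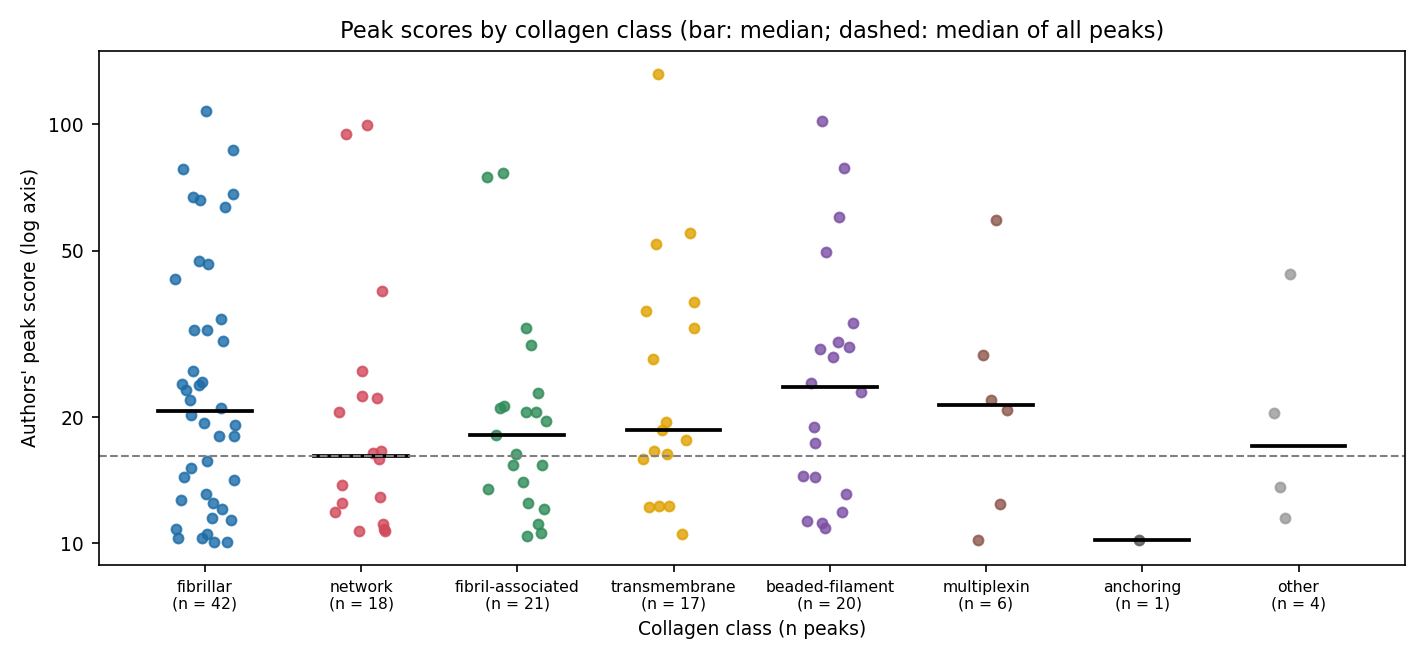
The authors' peak score of each collagen peak on a log axis, by class, with a bar at the class median and a dashed line at 16.2, the median of all peaks. Scores of the first 5 classes spread widely around their medians, and the highest point is the Col23a1 peak at 131.9.

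Of the 129 collagen peaks, 90 held a forkhead core within 100 bp of the midpoint (69.8%, interval 61.1 to 77.5), and 72.5% of all peaks did. In windows of the same 200 bp placed 2000 bp to either side, 18.2% held one. The strict core was in 40 collagen peaks (31.0%, interval 23.2 to 39.7), 3.10% of their flanks and 27.4% of all peaks. A single match was present in 64 of the 129 collagen peaks, 2 in 22 and 3 or more in 4. Among all 25704 peaks the numbers were 13180, 4306 and 1160. Matches gathered at the midpoint: 57% of the 121 lay within 20 bp of it, against 57.9% in the whole list. The core was present in 76.9% of collagen peaks with scores at or above the median of the list (interval 66.0 to 85.7) and 58.8% of those below (interval 44.2 to 72.4), where the whole list had 78.4% and 66.6%.

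By class, 15 of 17 transmembrane peaks held a core (88.2%, interval 63.6 to 98.5), as did 31 of 42 fibrillar (73.8%, interval 58.0 to 86.1), 15 of 21 fibril-associated (71.4%, interval 47.8 to 88.7) and 9 of 18 network peaks (50%, interval 26 to 74.0). Without Col8a1, a choice made after its values were seen, the network share was 5 of 8 (62.5%, interval 24.5 to 91.5). Of the 20 type VI peaks, 13 held a core (65.0%, interval 40.8 to 84.6). The strict core was in 11 of 20 type VI peaks (55.0%, interval 31.5 to 76.9) and 2 of 18 network peaks (11.1%, interval 1.38 to 34.7). Col8a1 gave 10 of those network peaks. In the fibrillar, fibril-associated and transmembrane classes the strict share was 31.0%, 28.6% and 29.4%, against 27.4% of all peaks. Every peak held a core at 12 members, and no peak did at 2, Col11a1 and Col8a2, which have a single peak each. All 9 members with a single peak fall in either count by necessity, and 72.5% of all peaks held a core. The same counts were not made over all genes.

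**Figure D4:**
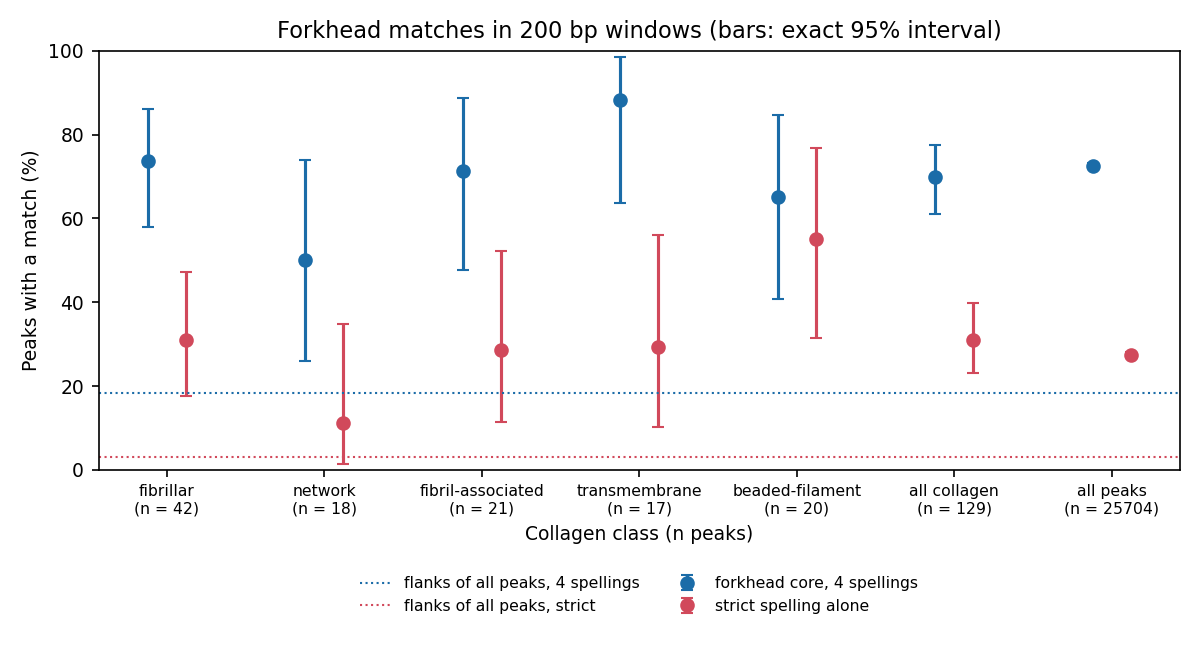
Percentage of peaks with a forkhead core (4 spellings) and with the strict core GTAAACA alone, by collagen class, with exact 95% intervals; dotted lines give the share in flanks of all peaks. The 4-spelling share of collagen peaks, 69.8%, lies far above the flank line, and the class intervals overlap.

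Promoters, here the stretch from 1000 bp before a TSS to 100 bp after it, held 3 collagen peaks (2.33%, interval 0.482 to 6.65), and 6.27% of all peaks. The 3 genes, Col3a1, Col5a2 and Col13a1, compare with 6.70% of all protein-coding genes. The Col3a1 promoter peak had the highest score of the 3, 42.8, against 20.3 at Col5a2 and 12.3 at Col13a1. Just outside this limit, Col1a2 had a peak 184 bp downstream of its TSS, in the untranslated part of exon 1, with a score of 15.1. Of these peaks at a collagen start, those of Col3a1, Col13a1 and Col1a2 are shown. The first pair are whole peaks, and for Col1a2 the 27 bases around the core nearest to the midpoint are given.
Col3a1, 124 bp upstream of its TSS (chr1:45311308-45311520): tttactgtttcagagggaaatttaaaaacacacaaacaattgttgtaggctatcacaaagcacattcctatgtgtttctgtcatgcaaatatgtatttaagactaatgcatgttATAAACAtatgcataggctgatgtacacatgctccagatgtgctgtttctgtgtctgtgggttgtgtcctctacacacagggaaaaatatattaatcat
Col13a1, 136 bp upstream of its TSS (chr10:61979138-61979350): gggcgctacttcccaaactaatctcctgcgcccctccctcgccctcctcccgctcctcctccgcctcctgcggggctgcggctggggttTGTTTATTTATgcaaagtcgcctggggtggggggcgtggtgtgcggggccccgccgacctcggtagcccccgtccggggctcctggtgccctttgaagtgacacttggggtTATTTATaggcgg
Col1a2, site in the peak 184 bp downstream of its TSS (chr6:4505660-4505686): cttttcccatATAAATAaggcaggtct
The Col3a1 peak held 1 ATAAACA, 11 bp from its midpoint. The Col13a1 peak held 3 matches, of which 2 overlap in a run that reads TGTTTATTTAT, in a window with a GC content of 65%. The Col1a2 site is an ATAAATA 4 bp from the midpoint. Within 10 kb of a TSS, 14 of the 44 members had a peak, as did 19.5% of all protein-coding genes.

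Short sequences bound by other transcription factor families were searched in the same windows, for 15 searches in all with the 3 forkhead forms. They were chosen with results of these data known, and no test was run. The collagen interval excluded the share in all peaks for 2 of them, and 13 did not separate. The E-box CATCTG of basic helix-loop-helix factors was in 36.4% of collagen peaks (interval 28.1 to 45.4), 19.4% of their flanks and 28.0% of all peaks. It was in 14.9% of the flanks of all peaks, so the ratio of peaks to flanks was 1.88 in both sets. The AP-1 sequence TGANTCA was in 14 collagen peaks at 10 genes (10.9%, interval 6.06 to 17.5), 5.43% of flanks and 5.78% of all peaks. The second E-box, CAGCTG, was in 24.8% of collagen peaks against 18.7% of all peaks, and the TEAD sequence GGAATG was in 21.7% against 15.1%. The SOX sequences ACAAAG and ACAATG, of the family that includes the cartilage regulator Sox9, were in 36.4% against 33.2%, and the RUNX sequence TGTGGT was in 14.7% against 13.8%. The short SMAD sequence GTCTG was in 44.2% of both. The NFI half-site TTGGCA was in 14.7% against 12.2%, the GC box GGGCGG in 6.98% against 6.38%, TGACAG of TALE homeodomain factors in 17.1% against 18.0% and TAATTA of other homeodomain factors in 3.10% against 6.09%. The GLI sequence GACCACC was in 1 collagen peak, the intron 1 peak of Col3a1, against 1.53% of all peaks. The forkhead variant CTAAACA was in 10.9% against 9.22%.

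Genes that modify, export, process, crosslink or bind collagen were counted in the same way, in a list of 42. At least 1 peak was nearest to 21 of them (50%, interval 34.2 to 65.8), against 37.4% of all genes. The interval holds that share, and territory length was not accounted for here. There were 81 peaks in all, with a core in 50, and 72.5% of all peaks held one. Among the prolyl hydroxylation genes, 4 of 10 had a peak. P3h2, a prolyl 3-hydroxylase, had 15 in a territory of 285 kb with a top score of 42.9, while P4ha1, P4ha2 and P4ha3 had 1 each. Of the 5 genes of lysyl hydroxylation and glycosylation, Plod2, which prepares lysines for crosslinks, had 13 peaks in a territory of 1040 kb (top score 105.5, at 37.8 kb upstream), and Colgalt2 had 2. Of the 5 chaperone and export genes, Tmem38b had 8 in a territory of 584 kb and Serpinh1, the collagen chaperone, had 1. Processing genes had peaks at 6 of 8. Tll1 had 6 in a territory of 370 kb, Adamts3 5 in 348 kb, and Adamts2, Adamts14 and Pcolce2 2 each, with 1 at Bmp1. Of the 5 crosslinking enzymes, Loxl1 and Loxl4 had 2 each, and Lox, Loxl2 and Loxl3 had none. Of the 9 receptors, Itga11, the integrin chain for fibrillar collagen on mesenchymal cells, had 7 in a territory of 137 kb. Itga2 and Ddr2 had 3 each and Itga1 and Mrc2 had 2 each, those of Itga1 in a territory of 604 kb.

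Which gene a peak was credited to depended on the annotation. When the TSSs of noncoding genes were included, 52 peaks at 25 members remained nearest to a collagen TSS, and 25.9% of all protein-coding genes then had a peak. The 10 members that lost their peaks were Col4a2, Col4a3, Col12a1, Col19a1, Col25a1, Col6a1, Col6a3, Col6a4, Col7a1 and Col26a1. By that rule Col1a2 had 1, Col3a1 3, Col8a1 3 and Col5a1 6. Counting peaks inside the gene body gave 108 peaks at 32 members, with 23.4% of all genes, and left Col1a2 and Col3a1 with 1 each and Col5a1 with 6. Of those 108, 43 lay nearer to the TSS of another gene, including the partner gene for the Col4a1 and Col4a2 pair.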

How the data were processed

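Per the submitters' processing notes, Bowtie2 2.4.1, SAMtools 1.7.1 and HOMER were used with mm10; the series' design text gives Bowtie2 for alignment and HOMER for calling peaks against the input. The sources used here do not give the calling parameters or whether libraries were pooled. The peak score is the authors' value as deposited, with no stated scale. The last column, per the file headers a focus ratio or region size, was read as the caller's focus ratio, a deposited fraction per peak. Another 3 peaks, on a contig outside the chromosomes, were not used. All peaks are 212 bp wide (end minus start).

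Peaks were assigned to the nearest TSS of a protein-coding transcript in GENCODE M21 basic (GRCm38, the sequence of mm10). A territory is the sequence nearest to a gene's TSSs, with assembly gaps included. A promoter is 1000 bp upstream to 100 bp downstream of a protein-coding TSS, and other peaks were classed in the order coding exon, untranslated region, noncoding exon, intron and intergenic. Introns are numbered in the longest protein-coding transcript. Printed sequences come from the RefSeq copy of GRCm38. Members, lists and motifs were chosen with earlier results of these data known. All members are named. The 10 with the most peaks, those with 1 of the 10 highest-scored peaks and those with a promoter peak are described in detail. Sequences are the top peaks of 8 of them and promoter peaks with a core, of which 1 is not reported here. Up to 4 genes per role are named from the 42 related genes, plus others with a peak. Assignment, territories and the motif search were tested on simulated data. Scripts ran under Python 3.11.15 with scipy 1.17.1 for intervals, pandas 2.3.3 and numpy 2.4.6 for tables, and matplotlib 3.10.9 for plots.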

Additional observations from a re-analysis of the deposited data

How the results depend on the processing

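Under 14 alternatives of peak list, TSS set, distance, gene body, clustering, search window, core spelling and promoter width, 64 of 74 values stayed near the reported ones: counts within 1.5 times, shares within their interval. Only the 10 that follow moved beyond those limits. With a limit of 10 kb to the TSS, 18 collagen peaks at 14 members remained, at 0 network, 2 fibril-associated and 1 transmembrane genes, and 7 of the 42 related genes had a peak, since this setting counts fewer peaks. With noncoding TSSs, 52 peaks remained and 3 network genes had one. Peaks scored at or above the median numbered 78. GTAAACA alone was in 31.0% of collagen peaks. The related genes' alternatives were added after the data were seen. No paired analysis was possible because the list has no value per library, so leaving out a library could not be run either. Read depth is unknown, and a gene without a peak may hold sites below the caller's limit.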

Other observations

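The AP-1 sequence TGANTCA was in 8 of the 39 collagen peaks without a forkhead core (20.5%, interval 9.30 to 36.5) and in 6 of the 90 with one (6.67%, interval 2.49 to 13.9), with intervals that overlap. In the whole list the shares were 5.07% and 6.05%. The peaks include 3 at Col22a1 and 2 each at Col8a1 and Col15a1. The TEAD sequence GGAATG was in 12 of the 39 without a core (30.8%, interval 17.0 to 47.6) and 16 of the 90 with one (17.8%, interval 10.5 to 27.3), against 15.0% and 15.1% in the whole list. The E-boxes differed less between the 2 sets: CATCTG was in 33.3% without a core and 37.8% with one, and CAGCTG in 25.6% and 24.4%. These splits were made after the values were seen and were not tested.

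RefSeq promoter sequences (GRCm38.p6, 250 bases before to 50 after the start) were at hand for 35 collagen genes, and 7 of them held a forkhead core on either strand (20%, interval 8.44 to 36.9), as did 16.9% of all 27025 genes in that table. The 7 were Col10a1, Col11a2, Col13a1, Col3a1, Col6a1, Col6a4 and Col8a1, of which Col3a1 and Col13a1 had a promoter peak.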
